A study of Mus musculus with 6 samples.

Results

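Regulators of G protein signalling (RGS proteins) were examined at the RNA level in differentiating C2C12 cells labelled hnrnpa2b1 KO or WT. The group comprised 9 genes, *Rgs2*, *Rgs3*, *Rgs4*, *Rgs5*, *Rgs8*, *Rgs10*, *Rgs12*, *Rgs16* and *Rgs17*, of 46078 genes listed. They were taken by gene name and were chosen by values of the same contrast, with the counts of KO and WT libraries already known and with *Rgs8* singled out because it was nearly lost in KO. The differences between KO and WT in these 9 genes are therefore given as a description without p-values.

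C2C12 is an immortalized mouse myoblast line whose cells exit the cell cycle and fuse into myotubes when serum is withdrawn. Both genotypes were grown alike, switched to differentiation medium with insulin, transferrin and selenium, and collected after 2 days as a mixture of myoblasts and myotubes, in 3 libraries of hnrnpa2b1 KO cells (KO1 to KO3) and 3 of WT cells (WT1 to WT3). The KO cells had received Cas9 and a guide against *Hnrnpa2b1* and were picked as single clones, as were the WT cells, and a scrambled guide is named for the controls of the Western blots. Which clone gave which library is not stated in the sources used here, so p-values measure the spread between these libraries.

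An RGS protein binds the active, GTP-bound α subunit of a heterotrimeric G protein through its RGS domain and speeds up the hydrolysis of GTP, which shortens the signal that a receptor has started. Members fall into subfamilies by sequence. The R4 subfamily holds mostly small proteins that act on Gi/o and Gq subunits, the R12 subfamily acts on Gi/o, the RZ subfamily acts on Gz and other Gi/o subunits, and the R7 subfamily works as a dimer with Gβ5. In muscle, receptors for lipids, chemokines and nucleotides signal through these G proteins.

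The libraries held between 33605258 and 40558740 counted reads. RNA of *Hnrnpa2b1* itself overlapped between the genotypes, at 159, 195 and 249 CPM (counts relative to the library total, scaled by edgeR's TMM factors) in the KO libraries and 225, 229 and 252 CPM in the WT libraries (log2 fold change −0.23, standard error 0.18, adjusted p = 0.381 in edgeR), so it does not check the labels. The study's methods state that loss of the protein was checked in the KO clones by immunofluorescence and Western blot, which are not part of the files used here. Markers of myocytes and myotubes were present in every library, with 9 of 9 above 3 counts and a summed level of 9710 to 23159 CPM in KO and 16955 to 21081 in WT. Of these 9, 5 had log2 fold changes above 0 and 4 below, with a median of 0.06. The study reports that differentiation was impaired in the KO cells, which failed to build large myotubes over the same time. It also reports more myogenin-positive cells in KO by immunofluorescence. Fusion was not measured by these counts, so the median does not show that the genotypes were equally differentiated. edgeR called *Myl1* lower in KO (−2.39, adjusted p = 0.0297, lost without KO2, KO3, WT1 or WT3), and *Myh3*, which was not called, had all KO libraries below all WT libraries (−1.18, adjusted p = 0.126). Markers of undifferentiated myoblasts and reserve cells summed to 190 to 377 CPM in KO and 134 to 140 in WT, with *Calcr* and *Chrdl2* at no more than 3 counts in any library. *Cd34* had a mean of 153 CPM of this sum in KO and 45.7 in WT, and *Sdc4* 91.3 and 48.2. Of the 5 tested, edgeR called 3 higher in KO, *Pax7* (1.52), *Cd34* (1.74) and *Sdc4* (0.92), and 2 lower, *Myf5* (−1.50) and *Spry1* (−1.22). Their adjusted p-values in edgeR were 0.0223, 0.0107, 0.0124, 0.0303 and 0.0130, and whether these calls held with a library left out is not given here. The part that these cell states, or the reported defect in differentiation, have in the results below was not tested. In bulk RNA fewer cells of a type and less RNA per cell cannot be told apart.

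*Rgs8*, a small R4 protein best known from neurons, had 0.42, 0.34 and 0.24 CPM in KO1 to KO3 and 13.9, 8.44 and 12.02 CPM in WT1 to WT3. All 3 KO libraries were low and all 3 WT libraries were high, with no overlap. These levels rest on 15, 15 and 10 reads in KO and on 480, 277 and 446 reads in WT, so a low number of reads remained in each KO library. The mean was 0.336 ± 0.0881 CPM (SD, n = 3) in KO and 11.4 ± 2.77 CPM (SD, n = 3) in WT, a 34.1-fold difference of the means. On the log2 scale KO differed from WT by −5.08 (standard error 0.33), a value that lay between −5.27 and −4.90 with each library left out in turn. In TPM, a share of all transcripts that corrects for gene length, *Rgs8* had 0.0318, 0.0315 and 0.0236 in KO and 4.05, 2.27 and 3.05 in WT. On the log2(TPM + 1) scale, which compresses low values, the difference was −1.98 (standard error 0.18).

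*Rgs8* (ENSMUSG00000042671) lies on the plus strand of chromosome 1 of GRCm38, from 153653025 to 153700323. RefSeq lists 3 starts for it, and the 250 bases before each are shown because the counts do not say which start was used, followed by those before the start of *Rgs16*, the neighbouring R4 gene whose genotypes overlapped. They run 5′ to 3′ on the plus strand of GRCm38, at chr1:153652787-153653036, chr1:153665024-153665273, chr1:153665423-153665672 and chr1:153740103-153740352. Capitals mark CAGCTG (an E-box of the type bound by MyoD), TATAAA (the TATA box) and TGACG (the core of the cyclic AMP response element), searched on both strands, none of which holds another.
Rgs8 start 1: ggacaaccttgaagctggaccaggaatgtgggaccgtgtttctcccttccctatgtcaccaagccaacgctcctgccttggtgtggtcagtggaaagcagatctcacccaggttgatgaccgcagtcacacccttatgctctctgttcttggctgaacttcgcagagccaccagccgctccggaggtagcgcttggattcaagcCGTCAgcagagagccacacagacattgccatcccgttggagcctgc
Rgs8 start 2: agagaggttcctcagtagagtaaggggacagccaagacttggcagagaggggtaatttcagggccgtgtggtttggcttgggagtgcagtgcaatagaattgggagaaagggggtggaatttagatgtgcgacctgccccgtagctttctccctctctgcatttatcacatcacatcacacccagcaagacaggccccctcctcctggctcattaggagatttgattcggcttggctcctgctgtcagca
Rgs8 start 3: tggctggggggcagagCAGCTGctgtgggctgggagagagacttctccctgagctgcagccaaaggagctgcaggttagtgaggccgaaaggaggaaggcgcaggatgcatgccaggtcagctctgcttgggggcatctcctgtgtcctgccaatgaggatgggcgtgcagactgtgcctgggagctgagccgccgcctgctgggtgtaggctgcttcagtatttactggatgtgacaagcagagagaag
Rgs16 start: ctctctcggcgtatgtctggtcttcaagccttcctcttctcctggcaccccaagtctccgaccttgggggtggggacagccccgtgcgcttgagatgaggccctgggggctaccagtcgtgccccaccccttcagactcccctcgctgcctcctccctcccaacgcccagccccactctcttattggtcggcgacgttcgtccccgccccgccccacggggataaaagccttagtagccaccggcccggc

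TGACG was found on the reverse strand 46 bases before start 1 of *Rgs8*, CAGCTG 234 bases before start 3, and none of the 3 motifs before start 2 or before the start of *Rgs16*. Over 32851 RefSeq promoter windows of the same length, 13.0% held CAGCTG, 12.4% TATAAA and 17.8% TGACG. Promoter windows were found for all 9 genes, 13 in all, of which 2 held CAGCTG, 3 TATAAA and 4 TGACG. These letters describe the windows and name no bound factor. The GC content of the 3 *Rgs8* windows was 57.2%, 53.2% and 60.8%, against 66.4% for *Rgs16* and a median of 52.4% over all windows.

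**Figure D1:**
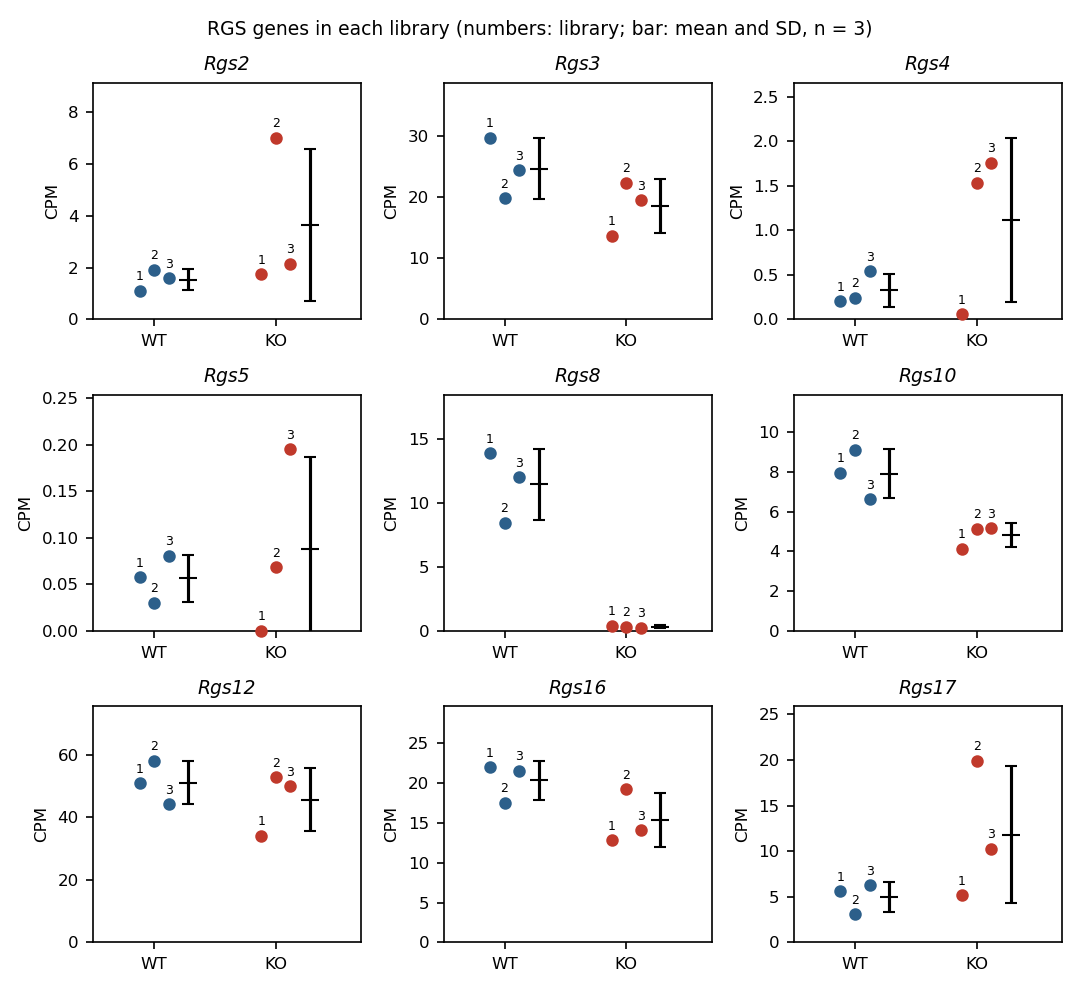
CPM of the 9 RGS genes in each library, with a linear axis from 0 in every panel. Blue points are WT libraries and red points KO libraries, numbered 1 to 3, and black bars give the mean and SD of 3 libraries, where a bar that would pass below 0 is cut at the axis. *Rgs8* and *Rgs10* are the panels in which the genotypes do not overlap, and KO2 stands above the other KO libraries for *Rgs2* and *Rgs17*.

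Of the 9 genes, 8 passed edgeR's filter on low counts and *Rgs5* did not. At an adjusted p-value under 0.05, with Benjamini-Hochberg adjustment over the 14828 genes tested, edgeR called 2 of the 8, *Rgs8* and *Rgs10*, both lower in KO. Over all genes tested 22.7% were called, 12.1% higher in KO and 10.6% lower. KO libraries all lay below WT libraries in 2 of the 8 genes and all above in 0, against 21.6% and 22.7% of all genes tested. The median log2 fold change of the 8 genes was −0.28, with 3 values above 0 and 5 below, beside 0.03 over all genes. Because the group was chosen with these values known, nothing is read from the counts.

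The 9 genes lie on 5 chromosomes of GRCm38. *Rgs2* spans 143999338 to 144004161 on the minus strand, *Rgs4* 169741477 to 169747642 on the minus strand and *Rgs5* 169655501 to 169695813 on the plus strand, all on chromosome 1 with *Rgs8* and *Rgs16*. *Rgs3* lies on chromosome 4 (62559847 to 62704001 on the plus strand), *Rgs12* on chromosome 5 (34949445 to 35039644 on the plus strand), *Rgs10* on chromosome 7 (128373621 to 128418758 on the minus strand) and *Rgs17* on chromosome 10 (5825663 to 5922400 on the minus strand).

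The other R4 members had no such gap between the genotypes. *Rgs16*, which acts on Gi/o and Gq, lies on the same strand as *Rgs8* with 40025 bases between them, from 153740349 to 153745468. It had 12.8, 19.2 and 14.04 CPM in KO1 to KO3 and 21.98, 17.5 and 21.5 CPM in WT1 to WT3. KO2 lay within the WT range and the other KO libraries below it. Its log2 fold change was −0.40 (standard error 0.19). *Rgs3*, a longer R4 member whose isoforms also carry other domains, had 13.6, 22.3 and 19.4 CPM in KO and 29.7, 19.8 and 24.4 CPM in WT. The genotypes overlapped through KO2 and WT2, and the log2 fold change was −0.42 (standard error 0.23).

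*Rgs2*, which is selective for Gq, had 1.73, 7.01 and 2.15 CPM in KO1 to KO3 and 1.10, 1.92 and 1.59 CPM in WT1 to WT3. KO2 was far above all other libraries and KO1 lay within the WT range. The log2 fold change of 1.24 (standard error 0.55) fell to 0.34 without KO2 and was 1.57 without KO1, where the gene passed edgeR's threshold, as did 30.6% of all genes tested. *Rgs4*, which acts on Gi/o and Gq, had 0.0560, 1.53 and 1.76 CPM in KO and 0.202, 0.244 and 0.539 CPM in WT. KO1, with 2 reads, was the lowest of all libraries, and KO2 and KO3, with 67 and 72 reads, were the highest. The log2 fold change was 1.75 (standard error 0.94), and 2.30 without KO1, where the gene passed the threshold. *Rgs5*, known as a marker of pericytes, had few reads in every library, with 0, 3 and 8 reads in KO1 to KO3 and 2, 1 and 3 reads in WT1 to WT3. The genotypes overlapped, and it did not pass the filter. *Rgs4* and *Rgs5* are neighbours on chromosome 1, with 45663 bases between them.

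The R12 member *Rgs10*, a small protein with little beyond its RGS domain, had 4.14, 5.13 and 5.18 CPM in KO1 to KO3 and 7.95, 9.11 and 6.63 CPM in WT1 to WT3. Every KO library lay below every WT library, as it did in TPM, where KO3 at 4.68 and WT3 at 4.71 almost met. The log2 fold change was −0.71 (standard error 0.21). It kept its sign with any library left out, between −0.85 and −0.61, but fell short of edgeR's threshold without KO1, KO2, KO3, WT1, WT2 or WT3 alike. *Rgs12*, a large R12 protein with further interaction domains, had 34.1, 52.9 and 50.0 CPM in KO and 50.9, 58.1 and 44.3 CPM in WT. The genotypes overlapped, and the log2 fold change of −0.16 (standard error 0.19) was 0.0047 without KO1.

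*Rgs17*, of the RZ subfamily, had 5.20, 19.9 and 10.3 CPM in KO1 to KO3 and 5.61, 3.08 and 6.25 CPM in WT1 to WT3. KO2 and KO3 were above all WT libraries and KO1 lay within their range. The log2 fold change was 1.25 (standard error 0.48). It was 0.64 without KO2 and 1.60 without KO1, where it passed the threshold, as it also did with all libraries in DESeq2. Over all genes tested, 30.6% passed without KO1 and 23.9% in DESeq2. Since the gene was chosen with these values known, nothing is read from these passes. Among the 9 genes KO1 was the lowest KO library in 8, all but *Rgs8*, and KO2 the highest in 5. Over all genes tested KO1 was the lowest in 34.2% and KO2 the highest in 34.0%. The summed level of the myotube markers was 23159, 9710 and 16007 CPM in KO1 to KO3, so KO1 was the highest and KO2 the lowest KO library there, and the part of this in the values of the 9 genes was not tested.

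**Figure D2:**
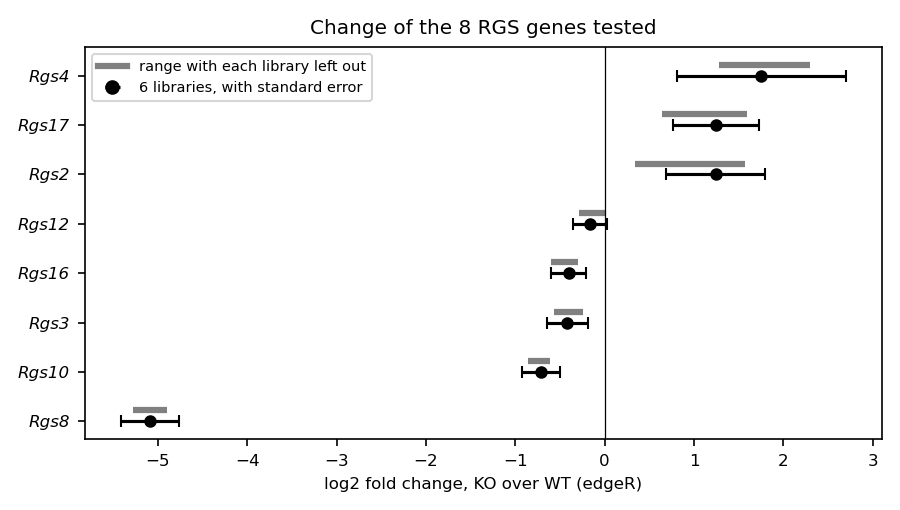
Log2 fold change of KO over WT for the 8 RGS genes that edgeR tested. Points and black bars give the value from 6 libraries with its standard error, and grey bars the range of values with each library left out in turn. *Rgs8* lies at −5.08 with a narrow range, whereas *Rgs2*, *Rgs4* and *Rgs17* lie above 0 with wide ranges and *Rgs12* reaches 0.

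Levels of different genes were compared in TPM. In WT, *Rgs3* (9.71 ± 2.59 TPM, SD, n = 3) came first, then *Rgs12* (8.62 ± 1.50), *Rgs16* (7.35 ± 0.752) and *Rgs10* (6.11 ± 1.38), and each of these overlapped its neighbour in the order. *Rgs8* was the fifth at 3.12 ± 0.893 TPM, apart from *Rgs10* above it and from *Rgs17* (0.495 ± 0.245) below it. *Rgs2* (0.461 ± 0.222) overlapped *Rgs17*, and *Rgs4* (0.0759 ± 0.0372) and *Rgs5* (0.0045 ± 0.0078) followed, each apart from the gene before it. In KO, the order began with *Rgs12* (7.68 ± 2.15 TPM, SD, n = 3), *Rgs3* (7.29 ± 1.81), *Rgs16* (5.53 ± 1.26) and *Rgs10* (3.80 ± 0.907), again with overlapping neighbours. *Rgs10* was apart from *Rgs17* (0.995 ± 0.590) below it. *Rgs2* (0.881 ± 0.667) and *Rgs4* (0.263 ± 0.232) came next. *Rgs8*, at 0.0290 ± 0.0046 TPM, took place 8 and overlapped *Rgs4* above it and *Rgs5* (0.0164 ± 0.0184) below it.

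Summed over the 9 genes, the level was 18.4, 30.8 and 30.3 TPM in KO1 to KO3 and 40.6, 35.2 and 32.0 TPM in WT1 to WT3. All KO libraries were below all WT libraries. Without *Rgs8* the sum was 18.3, 30.8 and 30.3 TPM in KO and 36.6, 33.0 and 28.9 TPM in WT, and the genotypes overlapped, with WT3 below KO2 and KO3. *Rgs8* made up 9.97%, 6.44% and 9.55% of this sum in WT and 0.173%, 0.102% and 0.0781% in KO.

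**Figure D3:**
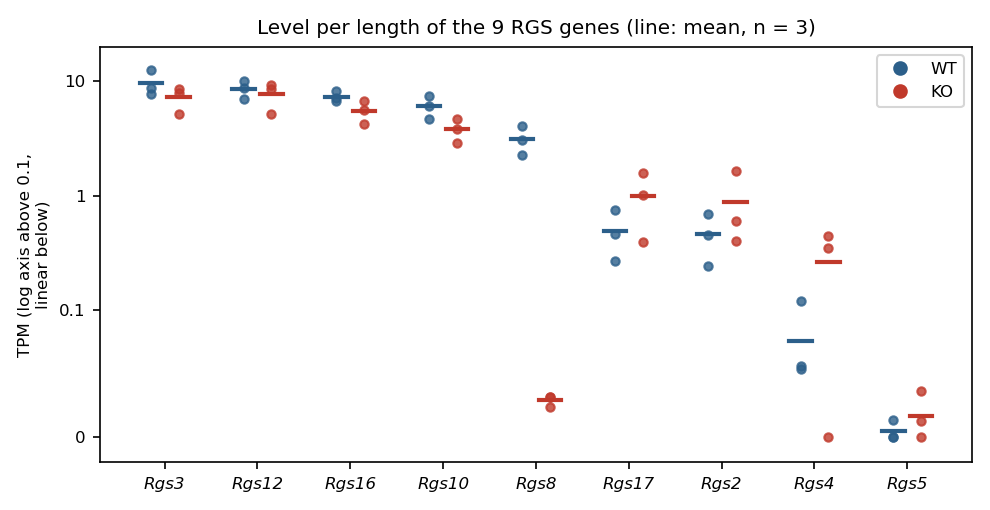
TPM of the 9 RGS genes in each library, ordered by their mean in WT, on an axis that is logarithmic above 0.1 and linear below. Blue points are WT, red points KO, and lines give the mean of 3 libraries. *Rgs8* goes from place 5 in WT to place 8 in KO, and the 4 most abundant genes are the same in both.

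The tested genes around *Rgs8* on the chromosome were also listed. Of the tested genes close to it, *Gm6652* and *Teddm2* had log2 fold changes of 0.22 and −0.38 and were not called (adjusted p = 0.800 and 0.623 in edgeR), beside −0.40 for *Rgs16*, which is given as a description. Among 27 other tested genes that start within 2 Mb of the start of *Rgs8*, 4 were called higher in KO and 1 lower, with a median log2 fold change of 0.13 and a range from −1.75 to 3.51. Over all genes tested, 12.1% were called higher and 10.6% lower. *Rgs8* was singled out for its near loss, and of 14828 genes tested 51 called ones had a lower log2 fold change. A gene as low as *Rgs8* in this stretch was therefore unlikely from the start, and none was found. An antisense gene that overlaps *Rgs8*, *Gm29529*, had 0 reads in every library, and 2 to 7 reads fell on *Gm28513*, an antisense gene that overlaps *Rgs16*. Whether the counting used strand is not given in the sources used here.

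**Figure D4:**
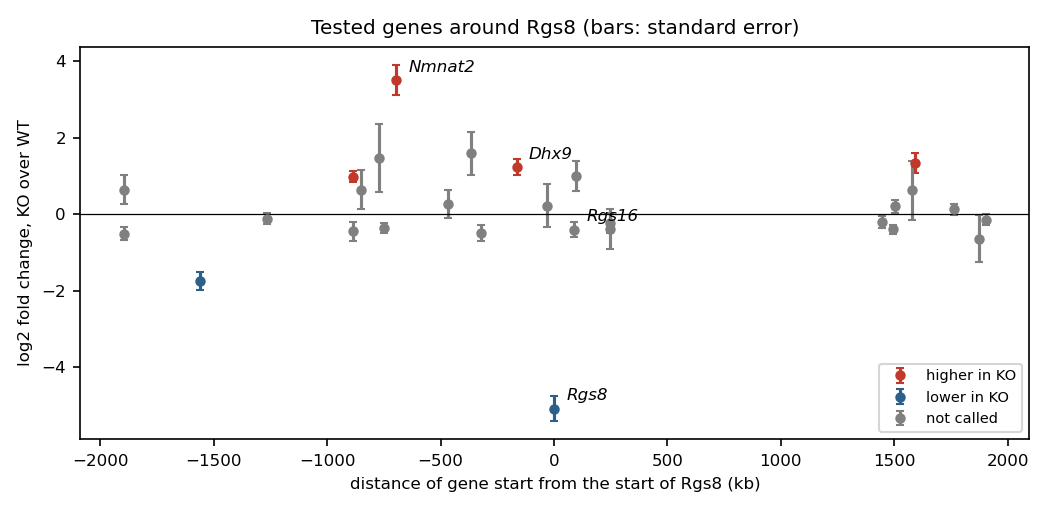
Log2 fold change of KO over WT with its standard error for each tested gene that starts within 2 Mb of the start of *Rgs8*, against the distance of the starts. Red and blue mark genes that edgeR called higher or lower in KO, and grey marks the others. *Rgs8*, singled out for its near loss, is the lowest at −5.08, and its neighbour *Rgs16* lies at −0.40.

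The 4 nearest tested genes of the members other than *Rgs8* and *Rgs16* gave median log2 fold changes between −0.02 for *Rgs2* and 0.50 for *Rgs5*. The 4 genes nearest *Rgs5* include *Rgs4* (1.75), itself a member, and the others are also among the 4 nearest *Rgs4*, so these medians are not separate. The neighbours of these members that edgeR called are named after their values were seen, and over all genes tested 22.7% were called. Lower in KO were *Uchl5* (−0.94, 191872 bases from *Rgs2*), *Uap1* (−0.51, 394296 bases from *Rgs4*) and *Syne1* (−1.07, 274181 bases from *Rgs17*). Higher in KO were *Hdhd3* (1.05, 56380 bases from *Rgs3*) and *Grk4* (1.80, 194140 bases from *Rgs12*). These calls had adjusted p-values of 0.00927, 0.0345, 0.00312, 0.0318 and 0.0137 in edgeR. Those of *Uchl5* and *Syne1* held in all 11 alternatives run on them. That of *Uap1* was lost with the replicate block and without KO1, KO2, KO3, WT1 or WT2, and that of *Hdhd3* without KO2, KO3, WT1, WT2 or WT3.

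The pattern of each gene over the 6 libraries was compared with that of every other tested gene by Pearson's r of log2 CPM, as a description. The 5 genes most like *Rgs8* were *Rrn3* (r = 0.999), *Tmem252* (0.998), *Zfp958* (0.998), *Rftn2* (0.998) and *Hdac9* (0.998). Their log2 fold changes were −0.42, −4.08, −1.28, −1.10 and −5.10, so the likeness is one of pattern and not of size. With 6 libraries that separate by genotype such values are common, and 1236 genes had an r over 0.9 with *Rgs8*. The closest gene was *Bloc1s5* for *Rgs2* (r = 0.992), *Tmem231* for *Rgs3* (0.993), *Eif4e3* for *Rgs4* (0.994), *Fas* for *Rgs10* (0.998), *Bet1* for *Rgs12* (0.989), *Dcxr* for *Rgs16* (0.993) and *Hist1h2bn* for *Rgs17* (0.998). Fewer genes followed these members, from 86 with an r over 0.9 for *Rgs12* to 385 for *Rgs10*.

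Of 13 other RGS genes, 3 passed the filter, and *Rgs19* was called. *Rgs19*, an RZ relative of *Rgs17*, rose from 6.19, 8.69 and 7.52 CPM in WT1 to WT3 to 13.3, 12.7 and 16.7 CPM in KO1 to KO3. Every KO library was above every WT library. The log2 fold change was 0.93 (standard error 0.20, adjusted p = 0.0160 in edgeR), and the call was lost without WT1 or WT3. *Rgs20*, the third RZ gene, had 2.91, 1.90 and 1.64 CPM in KO and 1.36, 1.13 and 1.54 CPM in WT, without overlap but short of the threshold (log2 fold change 0.68, standard error 0.33, adjusted p = 0.169 in edgeR). *Rgs14*, an R12 relative of *Rgs10* and *Rgs12*, had 23, 44 and 10 reads in KO and 1, 2 and 6 in WT, and did not pass the filter.

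In the R7 subfamily, *Rgs6*, *Rgs7* and *Rgs9* had at most 15 reads in any library, and *Rgs11*, with 17 to 80 reads, was not called (log2 fold change −0.52, standard error 0.59, adjusted p = 0.545 in edgeR). *Gnb5*, the Gβ5 subunit that these proteins need for stability, had 7.25, 6.69 and 6.10 CPM in KO1 to KO3 and 18.5, 19.6 and 16.2 CPM in WT1 to WT3. All KO libraries were below all WT libraries. It fell by 1.44 on the log2 scale (standard error 0.16, adjusted p = 0.00216 in edgeR).

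Genes of the pathway on which RGS proteins act were taken from 9 lists of 151 genes, set up from general knowledge of G protein signalling with earlier results of these data known. Of 99 that passed the filter, edgeR called 18 higher in KO and 11 lower, which is 29.3% beside 22.7% of all genes tested. Their median log2 fold change was 0.13. Without WT1 9 of 105 tested were called, without WT3 13 of 104, and without KO1 39 of 107. Over all genes tested, the shares called in these 3 fits were 6.01%, 8.43% and 30.6%.

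Among 12 tested Gα subunits, the direct partners of RGS proteins, 2 were called higher and 1 lower, with a median of 0.18. *Gnai1*, a Gi subunit, had 0.140, 0.252 and 0.122 CPM in KO1 to KO3 and 6.999, 5.30 and 7.57 CPM in WT1 to WT3. The KO libraries held 5, 11 and 5 reads and the WT libraries 242, 174 and 281, so this gene, like *Rgs8*, was nearly lost in all KO libraries. It fell by 5.23 on the log2 scale (standard error 0.37, adjusted p = 0.000507 in edgeR). The other Gi/o subunits did not follow. *Gnao1* rose from 18.9, 21.4 and 14.5 CPM in WT to 36.6, 50.2 and 48.9 CPM in KO (log2 fold change 1.31, standard error 0.19, adjusted p = 0.00518 in edgeR), without overlap. *Gnai3* was higher by 0.57 (standard error 0.13, adjusted p = 0.0199 in edgeR), without overlap, and lost the call without KO3, WT1 or WT3. *Gnai2* was not called, at 314 CPM on average in KO and 277 in WT (log2 fold change 0.18, adjusted p = 0.386 in edgeR).

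Of 11 tested Gβ and Gγ genes other than *Gnb5*, 2 were called higher and 2 lower, with a median of 0.06. *Gng2* was higher (0.97), and *Gng5* (−0.57) and *Gng11* (−1.40) were lower. The other gene called higher, *Gng4*, named after its values were seen, had 43, 15 and 28 reads in KO and 1, 1 and 5 in WT (adjusted p = 0.0172 in edgeR), and its call was lost without WT1 or WT2. The calls of *Gng2*, *Gng5* and *Gng11* were lost without WT1 or WT2, those of *Gng2* and *Gng11* also without KO3 or WT3, and that of *Gng2* also with the replicate number as a block. Among 13 other tested genes for proteins with an RGS homology domain, the receptor kinase genes *Grk4* (1.80) and *Grk6* (0.97) were higher and *Snx14* (−0.44) was lower. *Snx14* lost its call without KO2, KO3, WT1, WT2 or WT3, with the replicate block and with no filter, *Grk6* without KO2, KO3, WT1 or WT3, and *Grk4* without WT1 or WT3. The median of the 13 was 0.14.

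Of 7 tested genes for other Gα regulators and arrestins (median −0.14), *Arrb1*, an arrestin that uncouples receptors from G proteins, was higher (1.32, lost without WT1), and *Ric8b*, a chaperone of Gα subunits, was lower (−0.48, lost without KO2, KO3, WT1 or WT3 and with the replicate block). Effectors of Gi and Gs gave 1 call in each direction among 15 tested, with a median of 0.06. *Adcy8*, a calcium-stimulated adenylyl cyclase, had 0.448, 0.504 and 0.635 CPM in KO and 7.78, 8.29 and 10.1 CPM in WT, and fell by 4.03 on the log2 scale (standard error 0.27, adjusted p = 0.000390 in edgeR). *Adcy3* was higher by 3.18 (standard error 0.75, adjusted p = 0.0226 in edgeR), with 2.38, 3.71 and 0.586 CPM in KO and no more than 0.427 in WT, and lost its call without KO2, WT1 or WT3. Among 12 tested effectors of Gq, with a median of 0.11, *Itpr3* (0.59) and *Kalrn* (1.08) were higher. The call of *Itpr3* was lost without WT1 or WT3, and that of *Kalrn* without KO2, KO3, WT1, WT2 or WT3.

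Of 25 tested receptor genes of the Gi and Gq list, 7 were called higher and 4 lower, with a median of 0.22. *Ptgfr*, the prostaglandin F receptor, rose from 0.174, 0.183 and 0.108 CPM in WT to 2.01, 7.65 and 7.96 CPM in KO (log2 fold change 5.23, standard error 0.63, adjusted p = 0.00269 in edgeR). *Htr2b*, a serotonin receptor coupled to Gq, was higher by 2.20 (standard error 0.22, adjusted p = 0.00159 in edgeR) and *Cxcr4*, a chemokine receptor coupled to Gi, by 1.67 (standard error 0.20, adjusted p = 0.00266 in edgeR). *S1pr1*, the Gi-coupled receptor for sphingosine-1-phosphate, fell by 1.12 (standard error 0.19, adjusted p = 0.00705 in edgeR). In these 4 genes no KO library overlapped a WT library. *Bdkrb1* (2.70) was also higher and *P2ry2* (−1.30) lower, but their calls were lost without KO3, WT1 or WT3, that of *Bdkrb1* also without WT2 and with the replicate block, and that of *P2ry2* also without KO2. *P2ry1*, with 0, 2 and 1 reads in KO and 26, 41 and 30 in WT, and *Chrm3*, with 1, 6 and 1 reads in KO and 17, 13 and 50 in WT, were also called lower (adjusted p = 0.00332 and 0.0199 in edgeR), and both are named here after their values were seen. The call of *P2ry1* held in the 10 alternatives that tested it, and that of *Chrm3* was lost without KO3, WT1 or WT3. *Ackr3*, called higher, lost without WT1 or WT3 and noted here after its values were seen, sits in this list although it is known to signal through arrestins.

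**Figure D5:**
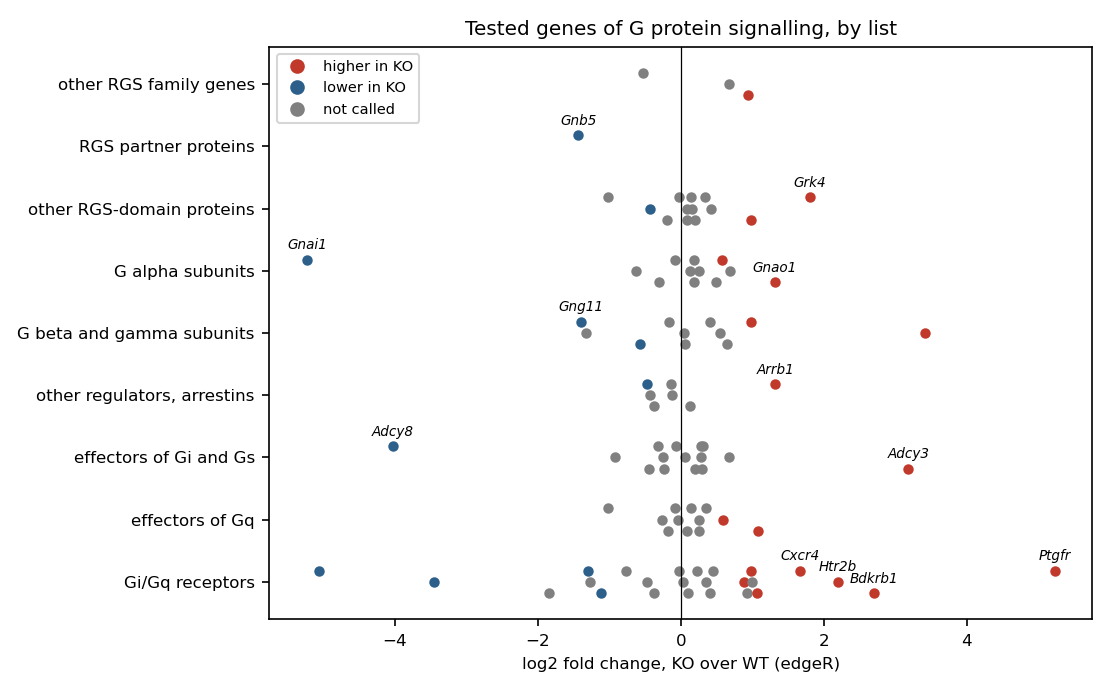
Log2 fold change of KO over WT for the 99 tested genes of G protein signalling, 1 point for each gene, arranged by list. Red and blue mark genes called higher or lower in KO by edgeR, and grey marks the others. *Gnai1* and *Adcy8* lie at −5.23 and −4.03, 2 receptors with few reads in KO are also far below 0, and *Ptgfr* lies highest at 5.23.

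Markers of other cell types were followed beside *Rgs8* and *Rgs5*. Of 10 neuronal markers, 5 had no more than 3 reads in any library (*Rbfox3*, *Snap25*, *Calb1*, *Pcp4* and *Gad1*), and the list summed to 26.1 to 105 CPM in KO and 29.8 to 37.6 in WT. *Map2*, which was not called (adjusted p = 0.439 in edgeR), made up 11.7, 92.6 and 34.2 CPM of it in KO1 to KO3 and 25.9 to 33.7 CPM in WT. Of 4 tested, *Tubb3* (2.76) and *Syn1* (1.47) were called higher and *Syt1* (−2.14) lower. The call of *Tubb3* held in all 11 alternatives run on it, that of *Syn1* was lost without KO3, WT1, WT2 or WT3, with the replicate block and with no filter, and that of *Syt1* without KO2, KO3, WT1, WT2 or WT3. Of 8 markers of pericytes and smooth muscle cells, *Kcnj8* and *Higd1b* had no more than 3 reads, and the list summed to 4226 to 4873 CPM in KO and 3945 to 4786 in WT. *Acta2* made up most of that sum, at 3694 to 4501 CPM over all libraries. Within the list edgeR called *Pdgfrb* higher in KO (2.32, adjusted p = 0.0123) and *Abcc9* lower (−4.57, adjusted p = 0.0133), and both calls were lost without WT1. Endothelial markers summed to at most 2.18 CPM in any library, with 1 of 2 tested called lower, and markers of blood and immune cells to at most 6.13 CPM, with 1 of 3 tested called higher. *Myl1*, *Myh3*, *Acta2*, *Pdgfrb*, *Abcc9*, *Map2*, *Tubb3*, *Syn1* and *Syt1* are named after their values were seen, as are *Pax7*, *Cd34*, *Sdc4*, *Myf5* and *Spry1*. The part of these markers in the results was not tested.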

How the data were processed

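Paired-end sequencing was done on total RNA after removal of ribosomal RNA. Per the submitters' processing notes and the methods, the authors trimmed the reads, aligned them with STAR and counted reads on genes with featureCounts, and deposited raw counts of all 6 libraries in 1 table, of which 0 columns were left unused. For each library the authors deposited a StringTie table with TPM, used here, and with FPKM and coverage, not used here. Versions and the use of strand are not given in the sources used here. The methods name GRCm39 and the notes mm9, whereas the positions of all 9 genes deposited with the TPM values equal those of GENCODE M21 on GRCm38, which are given here. Promoter windows are from RefSeq GRCm38.p6.

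Counts were filtered with filterByExpr, scaled with TMM factors (0.949 to 1.08) and tested with the quasi-likelihood test of edgeR (two-sided; p-values adjusted by Benjamini-Hochberg over 14828 genes, threshold 0.05). TPM sharing a gene identifier were summed and compared with limma on log2(TPM + 1) over 11691 genes that reached a TPM of 1 in 3 or more libraries. DESeq2 1.42.0, limma 3.58.1 and edgeR 4.0.16 ran under R 4.3.3, and all 3 fits were tested on simulated data. Alternatives were DESeq2, RLE scaling, other filters and pseudocounts, a replicate block, and each library left out. The members and lists were chosen with earlier results of these data known. Genes with at most 3 counts were treated as not detectable. Replicates of a genotype differed by more than counting noise (chi-square per degree of freedom 46.6 to 171). Outside the 9, the text names *Hnrnpa2b1*, called pathway genes whose mean log2 CPM reached 0 (up to 4 per list and direction), tested genes nearest *Rgs8* (of the 4 planned, 1 is not reported here), the 5 genes most like it and the 1 most like each other tested member (predicted genes left out), and others as comparisons.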

Additional observations from a re-analysis of the deposited data

How the results depend on the processing

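The fold change of *Rgs8*, which was selected for its loss in these libraries so that its call in any refit is no support, was −5.27 to −4.90 in the alternatives on counts, −4.61 on log2(TPM + 0.1) and −1.98 on log2(TPM + 1). The number of the 9 genes called was 2 in the chosen fit (beside 22.7% of all genes tested), 4 with no filter on low counts (*Rgs2*, *Rgs4*, *Rgs8* and *Rgs17*, beside 15% of all genes), 3 in DESeq2 (*Rgs8*, *Rgs10* and *Rgs17*, beside 23.9%), 1 with the replicate number as a block (beside 17%), and 1 in limma on log2(TPM + 1), on log2(TPM + 0.1) and on log2(TPM + 1) with no filter (beside 20.5%, 20.3% and 3.94%). With each library left out in turn it was 1 to 4, the 4 without KO1, where 30.6% of all genes were called. The number of all genes called was then 933 to 4712 (6.01% to 30.6%), and the number of pathway genes called was 9 to 39. *Rgs12* ranged from −0.28 to 0.0047 with each library left out and changed sign without KO1. *Rgs10* lost its call in 11 of 14 alternatives. Of 23 pathway genes named by the rule, 8 kept their call in all alternatives run on them (*Adcy8*, *Cxcr4*, *Gnai1*, *Gnao1*, *Gnb5*, *Htr2b*, *Ptgfr* and *S1pr1*) and 15 lost it in at least 1. The cause was not tested.

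The replicate numbers are not known to pair libraries. Deviations of KO1 and WT1, KO2 and WT2, and KO3 and WT3 from their group means correlated at 0.12, −0.11 and 0.01 across genes, and not every library correlated best with its own number. With the replicate block, 2520 genes were called in place of 3361, and 25 pathway genes in place of 29. *Rgs5*, with 0 to 8 reads in a library, had an adjusted p only in the fits with no filter, where it was not called.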
